A study of Mus musculus with 24 samples.

Results

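Zinc handling in mouse liver is described here through 10 genes: the importers Slc39a1, Slc39a2, Slc39a4, Slc39a5, Slc39a8 and Slc39a14, the exporters Slc30a1 and Slc30a10, and the metallothioneins Mt1 and Mt2. They were chosen by symbol. A probe set was taken if the platform annotation gave it exactly 1 of these symbols, and where a gene had several, the brightest on average stood for it. All 10 were measured, of 18820 genes tested. Slc39a1 had 2 such probe sets and each of the others had 1.

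Zinc crosses membranes through carriers of opposite direction. ZIP proteins, encoded by the Slc39a genes, bring zinc into the cytosol from outside the cell or from organelles, and ZnT proteins, encoded by the Slc30a genes, move it out of the cytosol. Metallothioneins are small cysteine-rich proteins that hold zinc and copper in the cytosol. In liver, cytosolic zinc raises Mt1, Mt2 and Slc30a1 through the zinc-sensing transcription factor MTF1, and inflammation raises the metallothioneins and Slc39a14, which draws zinc from the blood into hepatocytes. Some members carry other metals as well: ZIP8 and ZIP14 also import manganese and iron, and ZnT10 exports manganese.

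The study compared mice that lack NEMO, KEAP1 or both in hepatocytes with control mice. NEMO, a scaffold of the IkB kinase complex, is needed for canonical NF-kB activation, and KEAP1 holds down NRF2, a transcription factor of antioxidant genes. Expression was measured on 1-colour arrays in whole liver and in cultured primary hepatocytes, with 3 arrays in each of 8 groups. The groups were, in each tissue, NEMO knockouts (NEMOΔhepa), KEAP1 knockouts (KEAP1Δhepa), double knockouts (NEMOΔhepa/KEAP1Δhepa) and controls (NEMOf/f). All mice were male and 8 weeks old per the labels, and no strain is named in them. The knockouts were made with an Alfp-Cre transgene, a recombinase under albumin and alpha-fetoprotein control elements that acts from fetal life in the hepatocyte lineage, on floxed NEMO and KEAP1 genes. Controls carried floxed NEMO, and no control with floxed KEAP1 was analysed here. Hepatocytes were obtained by collagenase perfusion, attached overnight in serum-containing medium and then given fresh medium, so their arrays reflect cells after a short culture. Each array is labelled as 1 mouse, and the labels do not say whether a liver and a culture of the same number shared a mouse.

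Levels are log2 values made with RMA by the authors. Array medians lay between 4.03 and 4.23, and levels near or under these are low, so that changes from them can be understated. Labels and values disagreed, or an array differed from its group, for 4 of the 24 arrays. Liver control 3 carried the NRF2 target Nqo1 at 9.17, against 4.71 and 5.37 on the other liver controls. Liver double knockout 3 carried the fat cell gene Adipoq at 7.17, where every other array had at most 2.76. Hepatocyte double knockout 3 and hepatocyte control 1 had Xist at 9.76 and 9.65, a gene of female cells in mice labelled male, and Xist was at most 2.98 elsewhere. Counts of calls and the main changes are therefore given for all arrays and without these 4, which was decided once the values were known. Ikbkg, the gene of NEMO, lay between 6.01 and 6.60 on the NEMO and double knockout arrays, and between 6.40 and 7.20 on the KEAP1 knockout and control arrays, with liver control 3 lowest. Keap1 lay between 5.38 and 5.93 on the KEAP1 and double knockout arrays and between 5.81 and 6.62 on the NEMO knockout and control arrays. The position of these probe sets within either gene, and so what they say of the deletion, is unknown here.

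Albumin lay between 13.13 and 13.37 on all arrays, and 5 measured of 6 listed hepatocyte markers summed to between 14.96 and 15.28 (log2 of the summed linear values). Cell types other than hepatocytes were present in both materials. The 5 endothelial markers summed to 9.65 to 10.00 in NEMO knockout cultures, 9.27 to 9.76 in KEAP1 knockout cultures, 10.05 to 10.19 in double knockout cultures and 7.79 to 8.70 in control cultures. The 5 macrophage markers summed to 9.91 to 10.41 in NEMO knockout, 8.89 to 9.66 in KEAP1 knockout, 10.32 to 10.74 in double knockout and 7.98 to 9.19 in control cultures. The 5 stellate cell markers summed to 8.96 to 9.29, 7.73 to 7.91 and 8.37 to 8.60 in those knockout cultures and to 6.96 to 7.42 in control cultures. The 5 endothelial markers were all called higher in NEMO, KEAP1 and double knockout cultures against control on all arrays. There 6.65%, 1.87% and 9.72% of all genes were called. Without the arrays in doubt the same held except for 4 of 5 in KEAP1 knockouts, where 5.58%, 1.82% and 9.23% of all genes were called in those comparisons. In whole liver 0 of 5 macrophage markers were called in NEMO or double knockouts against control on all arrays, where 1.33% and 0.00531% of all genes were called. Without the arrays in doubt 4 of 5 were called higher in each, where 12% and 9.20% of all genes were called. The part of these cells in the results below was not tested, and in such mixed RNA fewer cells of a type and less RNA per cell cannot be told apart.

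The importers Slc39a2 and Slc39a4 were the members that passed the test on all 24 arrays. In hepatocytes that lacked NEMO both fell against control, Slc39a2 by 1.32 ± 0.36 and Slc39a4 by 0.57 ± 0.15 log2 units (± SE, 3 arrays a group). Neither of these falls passed the test without the arrays in doubt. In hepatocytes that lacked NEMO and KEAP1 the same importers were 2.25 ± 0.36 and 0.94 ± 0.15 above the NEMO knockout. Liver gave the same direction at each of these comparisons, with Slc39a2 just short of the threshold in NEMO knockout against control. The metallothioneins were higher on all 3 double knockout liver arrays than on any control array. These groups did not overlap, in either direction, for 3773 of the 18820 genes tested. The metallothioneins passed the test in this comparison without the arrays in doubt. Slc39a5 was higher in KEAP1 knockouts of both tissues and Slc30a10 lower in knockout livers, again as calls made without those arrays. In double knockout liver, which also lacks KEAP1, Slc39a5 was not called against control or NEMO knockout. Slc39a1, Slc39a8 and Slc30a1 had the smallest ranges of group means, at 0.15, 0.21 and 0.73 log2 units, against 3.01 for Mt2, 2.40 for Mt1 and 2.25 for Slc39a2.

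**Figure D1:**
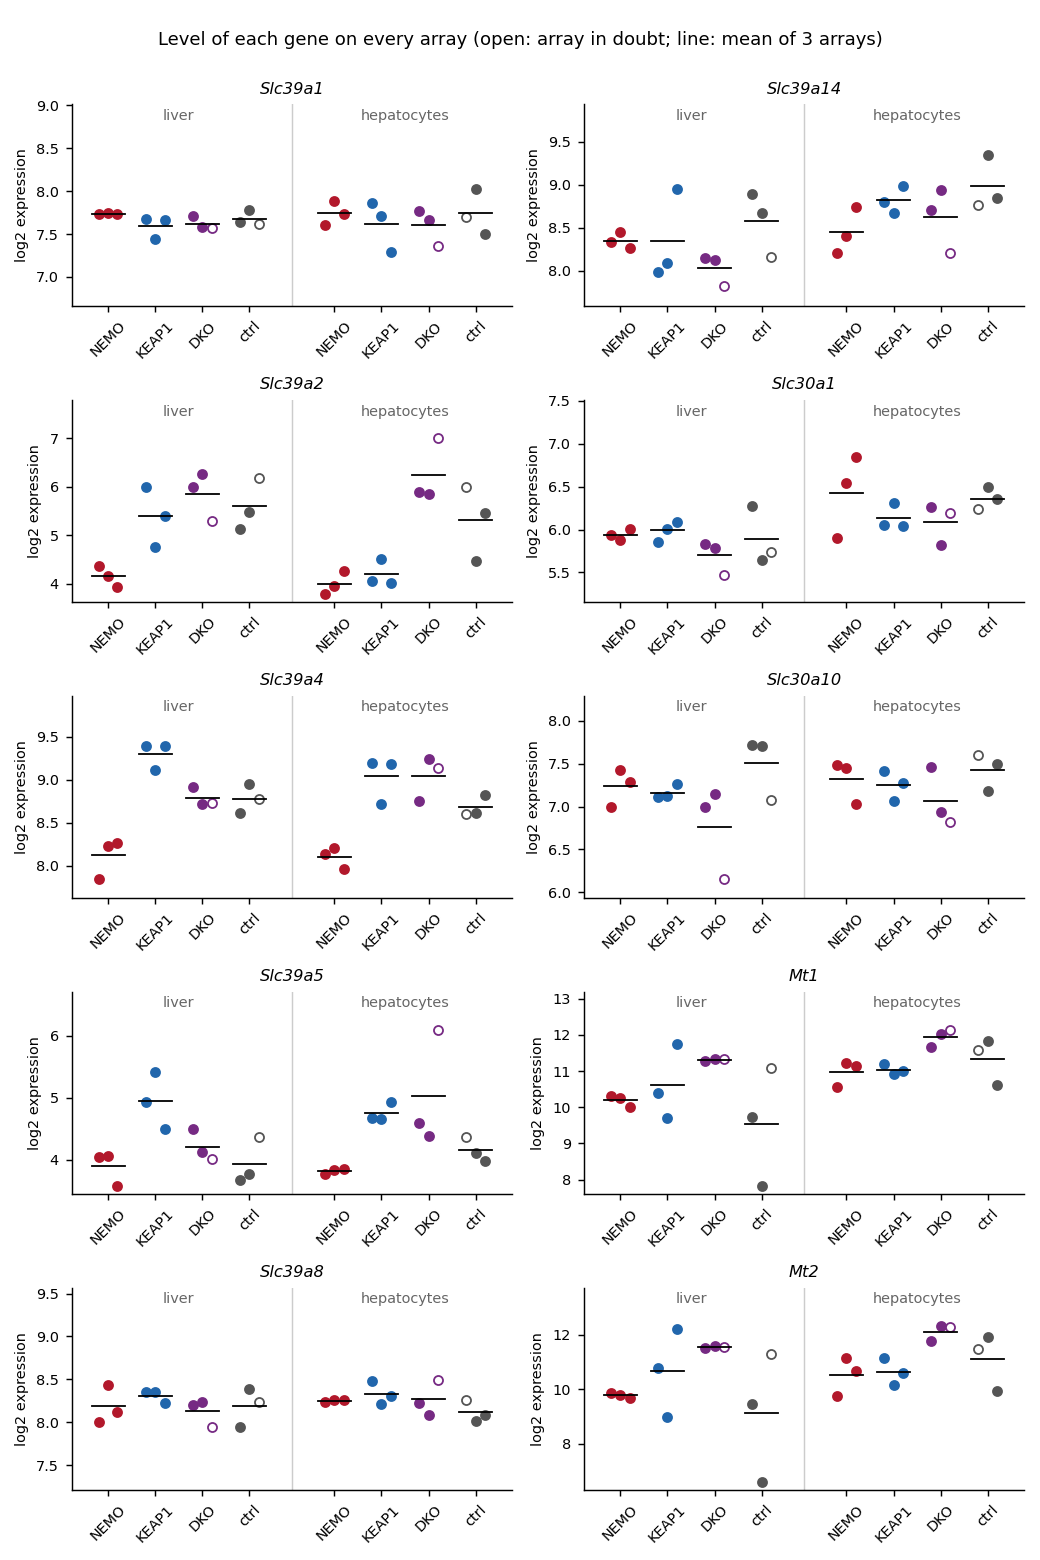
Each panel gives the log2 level of a gene on every array, with livers on the left, hepatocytes on the right, NEMO, KEAP1 and DKO for the single and double knockouts, open circles for the 4 arrays in doubt and a line at the mean of 3 arrays. Slc39a4 and Slc39a2 have their lowest means in NEMO knockouts in both tissues, and Mt1 and Mt2 spread over 7.82 to 11.10 and 6.59 to 11.31 among the 3 liver controls.

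A change was called at an adjusted p under 0.05 in limma's test, with Benjamini-Hochberg adjustment over the 18820 genes. In liver, NEMO knockout against control called 1 of the 10 genes, lower, where 1.33% of all genes were called, and 3, all lower, without the arrays in doubt, where 12% were. KEAP1 knockout against control called 0 of 10 (2 at an unadjusted p under 0.05), where 0% of all genes were called, and it called 1 higher and 1 lower without the arrays in doubt, where 5.26% were. Double knockout against control called 0 of 10 (4 unadjusted), where 0.00531% of all genes were called, and 2 higher and 1 lower without the arrays in doubt, where 9.20% were. With the replicate number as a block that comparison called 799 of all genes and still 0 of the 10. Double against NEMO knockout called 2 higher, where 1.05% of all genes were called, and 2 higher without the arrays in doubt, where 3.46% were. Double against KEAP1 knockout called 0 (2 unadjusted), where 0% of all genes were called, and 0 (3 unadjusted) without the arrays in doubt, where 0.0531% were. The interaction, the change with KEAP1 loss in the absence of NEMO minus that in its presence, called 0 (1 unadjusted), where 0.0106% of all genes were called, and 0 (2 unadjusted) without the arrays in doubt, where 0.345% were. These comparisons share arrays, so their counts are not independent of each other.

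In hepatocytes, NEMO knockout against control called 2 of the 10 genes, both lower, where 6.65% of all genes were called. Without the arrays in doubt, where 5.58% were, it called 1, lower, which was Slc39a14 and neither of the first 2. KEAP1 knockout against control called 0 (2 at an unadjusted p under 0.05), where 1.87% of all genes were called, and 1 higher without the arrays in doubt, where 1.82% were. Double knockout against control called 0 (5 unadjusted), where 9.72% of all genes were called, and 0 (2 unadjusted) without the arrays in doubt, where 9.23% were. Double against NEMO knockout called 2 higher, where 3.32% of all genes were called, and 3 higher without the arrays in doubt, where 3.80% were. Double against KEAP1 knockout called 1 higher, where 2.75% of all genes were called, and 1 higher without the arrays in doubt, where 3.78% were. The interaction called 1 of 10 with all arrays, where 0.0425% of all genes were called, and 1 without the arrays in doubt, where 0.117% were. Each count rests on at most 3 genes, chosen with earlier results of these data known. Whether any count differs from the share of all genes called was not tested.

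**Figure D2:**
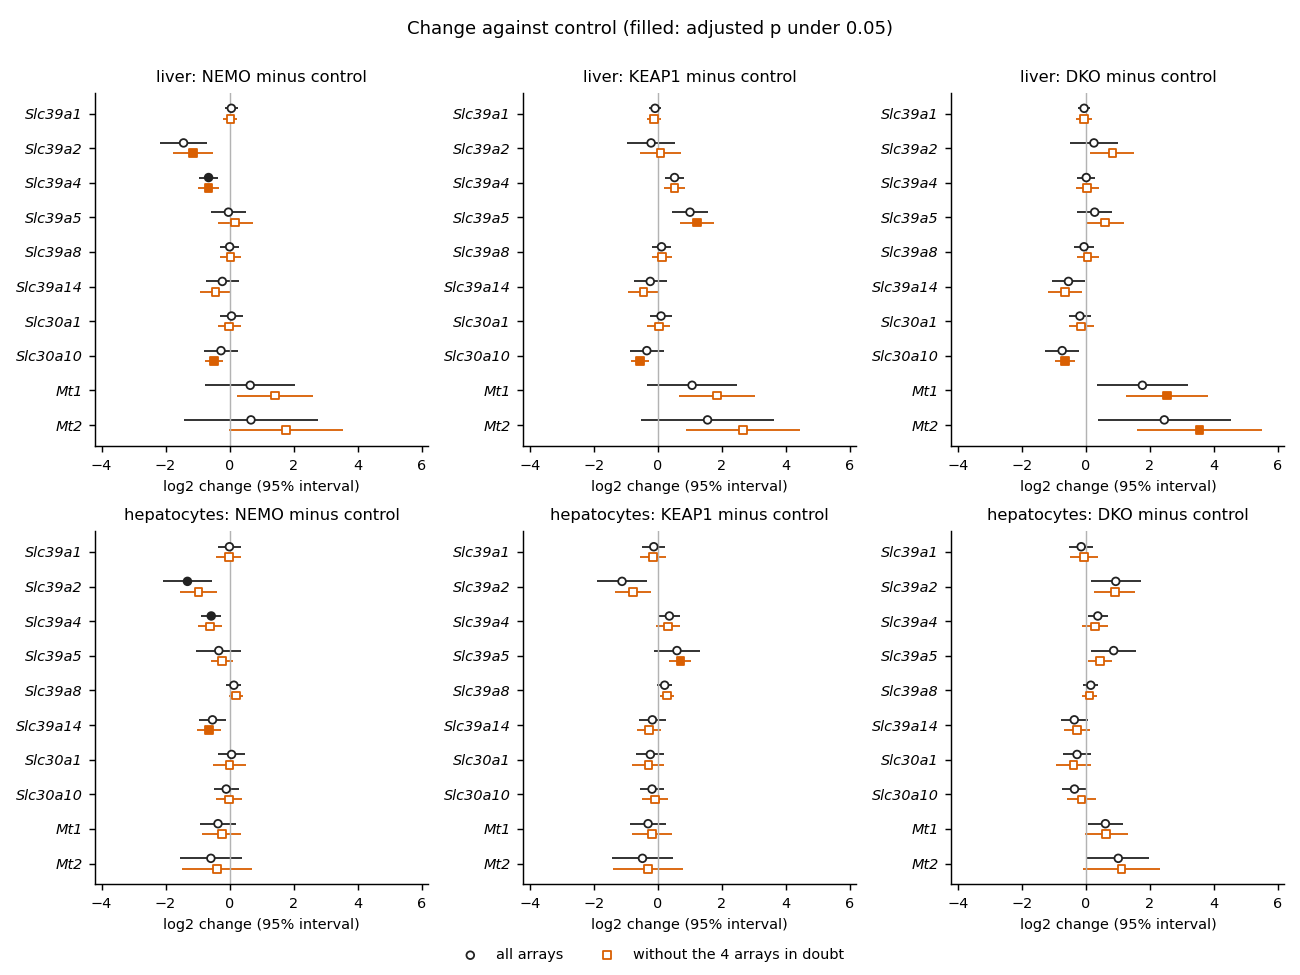
Points give the log2 change of each gene in the NEMO, KEAP1 and double knockout against control, with livers above and hepatocytes below, circles for all arrays, squares for the 20 arrays left without those in doubt, bars for 95% intervals and filled points for adjusted p under 0.05. Slc39a4 and Slc39a2 lie left of 0 in NEMO knockouts of both tissues, and the intervals of Mt1 and Mt2 in liver are the widest.

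Slc39a4 encodes ZIP4, the carrier that takes up dietary zinc in the gut and whose loss in humans causes the zinc deficiency disease acrodermatitis enteropathica. In liver it was at 7.85, 8.23 and 8.27 in NEMO knockouts, 9.39, 9.12 and 9.40 in KEAP1 knockouts, 8.92, 8.72 and 8.73 in double knockouts, and 8.61, 8.95 and 8.78 in controls. In hepatocytes it was at 8.14, 8.21 and 7.96 in NEMO knockouts, 9.20, 8.72 and 9.19 in KEAP1 knockouts, 8.76, 9.24 and 9.14 in double knockouts, and 8.60, 8.61 and 8.82 in controls. The NEMO knockouts of both tissues lay below all other arrays, the KEAP1 knockout livers lay above all other livers, and the double knockout overlapped the control in both tissues. KEAP1 knockout and control livers did not overlap, in either direction, for 11.6% of all genes. Ordered by group mean, KEAP1 knockout liver came first at 9.30 ± 0.16 (SD, n = 3), each group from there to control hepatocytes at 8.68 ± 0.13 overlapped the next, and a gap separated these from NEMO knockout liver at 8.12 ± 0.23 and NEMO knockout hepatocytes at 8.10 ± 0.13.

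Against control, Slc39a4 fell by 0.66 ± 0.13 on the log2 scale in NEMO knockout liver (± SE of the fit, adjusted p = 0.0359). Its decrease in NEMO knockout hepatocytes was -0.57 ± 0.15 (adjusted p = 0.0335). The liver change was as large without the arrays in doubt (-0.66 ± 0.15, adjusted p = 0.0135), and the hepatocyte change missed the threshold (-0.61 ± 0.17, adjusted p = 0.0557). Leaving out single arrays ended most of these calls. The liver call held without control 3 (adjusted p = 0.0224) and was lost without control 1 or 2 (0.0745 and 0.141) or NEMO knockout 1, 2 or 3 (0.0968, 0.0629 and 0.0905). The hepatocyte call was lost without any of its arrays, at 0.0834, 0.0604 and 0.113 without NEMO knockout 1, 2 and 3 and at 0.0586, 0.0547 and 0.115 without control 1, 2 and 3. In NEMO knockout against control the arrays of the groups did not overlap for 22.2% of all genes in liver and 22.9% in hepatocytes. The sizes moved less than the calls, over -0.74 to -0.53 in liver and -0.63 to -0.50 in hepatocytes.

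The double knockout stood above the NEMO knockout in Slc39a4 by 0.94 ± 0.15 in hepatocytes (adjusted p = 0.00358) and, in livers, by 0.67 ± 0.13 (adjusted p = 0.0368). Without the arrays in doubt these differences were 0.90 ± 0.17 (adjusted p = 0.011) and 0.70 ± 0.15 (adjusted p = 0.0224). In hepatocytes the call held without each of the 6 arrays in turn, with adjusted p between 0.00216 and 0.0217. In liver it was lost without any of them, at adjusted p of 0.154, 0.0972 and 0.0565 without double knockout 1, 2 and 3 and 0.108, 0.0835 and 0.0828 without NEMO knockout 1, 2 and 3. KEAP1 loss where NEMO was present gave 0.52 ± 0.13 in liver (adjusted p = 0.617) and 0.36 ± 0.15 in hepatocytes (adjusted p = 0.289). Removing the arrays in doubt gave 0.52 ± 0.15 and 0.32 ± 0.17 (adjusted p = 0.0647 and 0.459). The interaction, which tests whether KEAP1 loss acted differently with and without NEMO, was 0.14 in liver (95% interval -0.26 to 0.55) and 0.58 in hepatocytes (0.13 to 1.03, adjusted p = 0.373). With those arrays removed it was 0.17 (-0.28 to 0.63) and 0.58 (0.06 to 1.09, adjusted p = 0.527).

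Slc39a2 encodes ZIP2, an importer of the plasma membrane. In liver it was at 4.37, 4.16 and 3.94 in NEMO knockouts, 6.00, 4.76 and 5.40 in KEAP1 knockouts, 5.99, 6.27 and 5.29 in double knockouts, and 5.13, 5.48 and 6.18 in controls. In hepatocytes it was at 3.78, 3.95 and 4.25 in NEMO knockouts, 4.06, 4.50 and 4.02 in KEAP1 knockouts, 5.88, 5.85 and 7.0 in double knockouts, and 6.00, 4.47 and 5.46 in controls. NEMO knockout arrays of both tissues were at or near the array median, and all 3 lay below every control of their tissue. NEMO knockouts and controls did not overlap, in either direction, for 22.2% of all genes in liver and 22.9% in hepatocytes. KEAP1 knockout hepatocytes overlapped both the NEMO knockouts and the controls, and KEAP1 knockout livers overlapped the controls. Ordered by group mean, the 8 groups ran without a gap between neighbours from double knockout hepatocytes at 6.24 ± 0.65 down to NEMO knockout hepatocytes at 3.99 ± 0.24 (SD, n = 3 each). Hepatocyte double knockout 3 and hepatocyte control 1, the arrays with Xist, carried the highest Slc39a2 of their groups.

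In NEMO knockout hepatocytes Slc39a2 fell by 1.32 ± 0.36 against control (adjusted p = 0.0445), and the change was -0.98 ± 0.27 without the arrays in doubt (adjusted p = 0.0532). This call held without control 2 (adjusted p = 0.00558). It was lost without control 1 or 3 (0.163 and 0.121) or NEMO knockout 1, 2 or 3 (0.151, 0.12 and 0.0666). In NEMO knockout liver the change was -1.44 ± 0.34 with all arrays (adjusted p = 0.0605), and it passed the test without the arrays in doubt (-1.15 ± 0.29, adjusted p = 0.0223). The 95% interval on all arrays lay below 0 in both tissues, at -2.18 to -0.70 in liver and -2.09 to -0.54 in hepatocytes.

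Double knockout hepatocytes exceeded both single knockouts in Slc39a2, by 2.25 ± 0.36 over the NEMO knockout (adjusted p = 0.00401) and by 2.05 ± 0.36 over the KEAP1 knockout (adjusted p = 0.00913). With the arrays in doubt removed the differences were 1.87 ± 0.27 (adjusted p = 0.00189) and 1.67 ± 0.27 (adjusted p = 0.00522). Both calls held without each of their 6 arrays in turn, with adjusted p up to 0.0238 and 0.049. In liver the double knockout was 1.69 ± 0.34 above the NEMO knockout (adjusted p = 0.0398) and 1.97 ± 0.29 above it without the arrays in doubt (adjusted p = 0.00226). That liver call held without double knockout 3 (adjusted p = 0.028) and was lost without double knockout 1 or 2 (0.15 and 0.145) or NEMO knockout 1, 2 or 3 (0.0881, 0.13 and 0.165). The NEMO knockout arrays enter both this difference and the one against control, so a low NEMO group moves both. Set against control, the double knockout hepatocytes differed by 0.93 ± 0.36 (adjusted p = 0.135), or by 0.90 ± 0.29 with the arrays in doubt left out (adjusted p = 0.0796).

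In hepatocytes the difference in Slc39a2 with KEAP1 loss depended on NEMO. It was 2.25 higher without KEAP1 where NEMO was missing and -1.12 ± 0.36 where NEMO was present (adjusted p = 0.155). The interaction was 3.37 ± 0.51 (adjusted p = 0.038). With the arrays in doubt removed it was 2.65 ± 0.38 (adjusted p = 0.0195). It was called without control 1, 2 or 3 (adjusted p = 0.0318, 0.00281 and 0.0493) or double knockout 3 (0.0395). It was lost without double knockout 1 or 2 (0.0506 and 0.0788), KEAP1 knockout 1, 2 or 3 (0.136, 0.0785 and 0.072) or NEMO knockout 1, 2 or 3 (0.116, 0.112 and 0.0848). The interaction in liver had the same sign at 1.90 ± 0.48 (adjusted p = 0.524), and with those arrays removed it was 1.89 ± 0.41 (adjusted p = 0.0604).

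**Figure D3:**
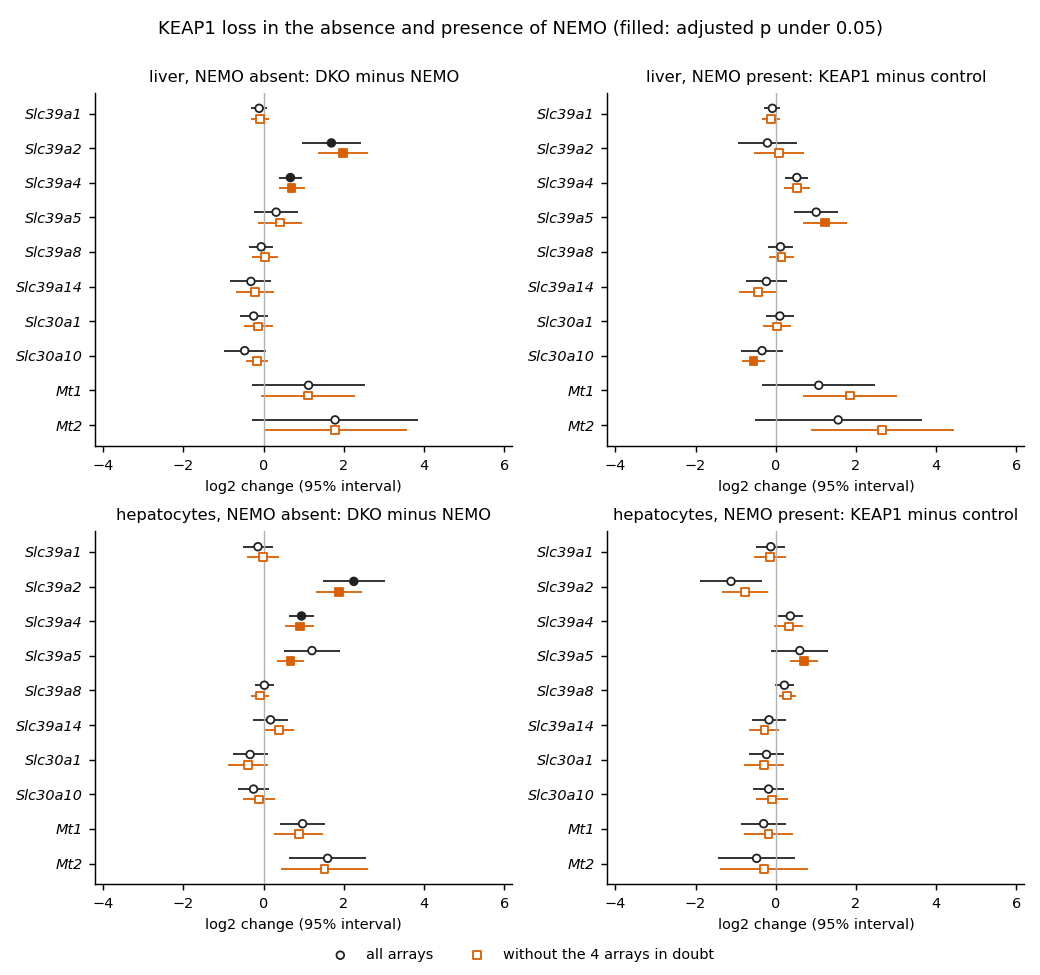
Points give the log2 change with KEAP1 loss where NEMO is absent (double knockout minus NEMO knockout, left) and where it is present (KEAP1 knockout minus control, right), with livers above, hepatocytes below, circles for all arrays, squares without the 4 arrays in doubt, bars for 95% intervals and filled points for adjusted p under 0.05. In hepatocytes Slc39a2 lies at 2.25 on the left and at -1.12 on the right.

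Slc39a5 encodes ZIP5, an importer found on the basolateral side of gut and pancreatic acinar cells. In liver it was at 4.05, 4.07 and 3.58 in NEMO knockouts, 4.93, 5.41 and 4.50 in KEAP1 knockouts, 4.49, 4.13 and 4.02 in double knockouts, and 3.67, 3.78 and 4.37 in controls. In hepatocytes it was at 3.78, 3.83 and 3.85 in NEMO knockouts, 4.68, 4.66 and 4.93 in KEAP1 knockouts, 4.60, 4.38 and 6.09 in double knockouts, and 4.37, 4.11 and 3.99 in controls. The KEAP1 knockouts lay above all controls of their tissue, and levels outside the groups without KEAP1 were at or near the array median. KEAP1 knockouts and controls did not overlap, in either direction, for 11.6% of all genes in liver and 19.3% in hepatocytes. With all arrays no change of Slc39a5 was called. Removing the arrays in doubt gave calls: it rose by 1.22 ± 0.25 in KEAP1 knockout liver (adjusted p = 0.0154, against 1.01 ± 0.25 and adjusted p = 0.617 on all arrays) and by 0.70 ± 0.16 in KEAP1 knockout hepatocytes (adjusted p = 0.0481, against 0.60 ± 0.33 and 0.474). Leaving out liver control 3 alone was enough for the liver call (adjusted p = 0.0279). The hepatocyte call was given by no single array left out, at adjusted p between 0.485 and 0.644.

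In the absence of NEMO, Slc39a5 was 0.67 ± 0.16 higher in double than in NEMO knockout hepatocytes without the arrays in doubt (adjusted p = 0.0372). With all arrays the difference was 1.21 ± 0.33 (adjusted p = 0.0662), and hepatocyte double knockout 3, at 6.09, lay above the 4.60 and 4.38 of its group. Among the groups ordered by mean, double knockout hepatocytes, KEAP1 knockout liver and KEAP1 knockout hepatocytes came first at 5.03 ± 0.93, 4.95 ± 0.45 and 4.76 ± 0.15 (SD, n = 3 each), and the first of these means was 4.49 without its array in doubt. Double knockout liver came next at 4.21 ± 0.25, and its highest array, 4.49, lay below all KEAP1 knockout arrays but above the 4.38 of a double knockout culture. Double and KEAP1 knockout livers did not overlap, in either direction, for 15.9% of all genes. Against control or NEMO knockout liver, double knockout liver gave no call for Slc39a5, with or without the arrays in doubt. Markers of exocrine pancreas, a main site of ZIP5, were summed over 4 measured of 5 genes. The sums were 6.09 to 6.50 in KEAP1 knockout, 6.50 to 6.96 in double knockout and 6.06 to 6.30 in control cultures, and 6.49 to 6.82 in KEAP1 knockout and 5.91 to 6.92 in control livers. In double knockout cultures against control Cela1 alone of the 4 was called higher, and the median change of the 4 was -0.11. The part of pancreatic RNA in the Slc39a5 levels was not tested.

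RefSeq promoter windows of 300 bases, from 250 before to 50 after an annotated start on assembly GRCm38.p6, were available for 8 of the 10 genes and searched for the core of the antioxidant response element bound by NRF2, TGACNNNGC, on both strands. At least 1 match lay in 12.4% of all 32851 windows and at least 2 in 0.96%. Slc39a5 had 2 windows, both on the minus strand. That at chr10:128401175-128401474 held no match, and that at chr10:128400417-128400716 held 2, shown in capitals. The second is printed because Slc39a5 was called higher in KEAP1 knockouts of both tissues without the arrays in doubt. No other alternative gave the hepatocyte call.
Slc39a5: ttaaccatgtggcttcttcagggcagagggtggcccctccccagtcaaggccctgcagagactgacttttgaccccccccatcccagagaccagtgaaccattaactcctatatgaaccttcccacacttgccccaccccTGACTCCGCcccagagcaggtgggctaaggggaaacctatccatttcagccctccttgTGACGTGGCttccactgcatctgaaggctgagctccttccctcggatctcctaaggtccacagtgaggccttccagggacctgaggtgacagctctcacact
The window of Slc39a2 held no match to this motif. Windows of Slc39a1, Slc30a1 and Mt2 and 1 of the 2 windows of Slc39a8 held 1 each, and these genes were not called higher in KEAP1 knockouts of either tissue. Of these genes, Mt2 was called higher in double knockout liver against control without the arrays in doubt. A match is a run of letters and not a site shown to be bound.

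Slc39a14 encodes ZIP14, the importer of zinc, manganese and iron that interleukin-6 induces in mouse liver. Livers had it at 8.33, 8.45 and 8.26 in NEMO knockouts, 7.98, 8.09 and 8.95 in KEAP1 knockouts, 8.15, 8.12 and 7.82 in double knockouts, and 8.89, 8.67 and 8.16 in controls. Hepatocytes had it at 8.21, 8.40 and 8.74 in NEMO knockouts, 8.80, 8.67 and 8.98 in KEAP1 knockouts, 8.71, 8.94 and 8.21 in double knockouts, and 8.76, 9.35 and 8.85 in controls. NEMO knockout cultures lay below all control cultures, and double knockout livers below all control livers, with 8.15 against 8.16 at the closest. NEMO knockout and control cultures did not overlap, in either direction, for 22.9% of all genes. For double knockout and control livers this held for 3773 of the 18820 genes tested. The change in NEMO knockout hepatocytes was -0.54 ± 0.20 on all arrays (adjusted p = 0.143) and passed the test once the arrays in doubt were removed (-0.65 ± 0.17, adjusted p = 0.0479). No single array left out gave this call, and the change then ran over -0.68 to -0.35. Of 8 other alternatives, with the removal of the arrays in doubt among them, 2 gave it, at adjusted p down to 0.0232. The change under those 8 ran over -0.706 to -0.502. In double knockout liver it was -0.54 ± 0.24 (adjusted p = 0.22), or -0.65 ± 0.24 with those arrays removed (adjusted p = 0.123). All 8 groups overlapped their neighbours in the order of means, from control hepatocytes at 8.98 ± 0.32 to double knockout liver at 8.03 ± 0.18.

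Slc39a8 encodes ZIP8, which recovers manganese from bile in mouse hepatocytes, and Slc39a1 encodes ZIP1, a widely expressed zinc importer. Slc39a8 lay between 7.94 and 8.49 on all 24 arrays, and its group means between 8.12 and 8.33. Slc39a1 lay between 7.29 and 8.03, and its group means between 7.59 and 7.74. Neighbouring groups overlapped throughout for both genes. Changes of Slc39a8 against control had 95% intervals within -0.36 and 0.45, and those of Slc39a1 within -0.51 and 0.36, over both tissues and all 3 knockouts. The dimmer probe set of Slc39a1 had group means between 6.46 and 6.69.

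Slc30a10 encodes ZnT10, a manganese exporter whose loss in humans causes manganese overload with liver cirrhosis. Livers had it at 6.99, 7.43 and 7.29 in NEMO knockouts, 7.11, 7.12 and 7.26 in KEAP1 knockouts, 7.0, 7.15 and 6.15 in double knockouts, and 7.72, 7.71 and 7.08 in controls. Hepatocytes had it at 7.48, 7.45 and 7.03 in NEMO knockouts, 7.41, 7.06 and 7.27 in KEAP1 knockouts, 7.46, 6.94 and 6.82 in double knockouts, and 7.60, 7.18 and 7.49 in controls. In liver the knockouts lay below controls 1 and 2 and on both sides of control 3, and in hepatocytes all groups overlapped. Once the arrays in doubt were removed it fell in liver by 0.48 ± 0.13 in NEMO knockouts (adjusted p = 0.0296), by 0.56 ± 0.13 in KEAP1 knockouts (adjusted p = 0.0274) and by 0.65 ± 0.14 in double knockouts (adjusted p = 0.0137). These 3 changes share the same 2 control arrays, at 7.72 and 7.71. On all arrays they were -0.27 ± 0.24, -0.34 ± 0.24 and -0.74 ± 0.24, with adjusted p of 0.588, 0.718 and 0.146. In NEMO and KEAP1 knockout liver no other alternative gave a call, and with 1 array left out adjusted p was at least 0.248 and 0.269. Leaving out liver control 3 alone gave the call in double knockout liver (adjusted p = 0.0256). Double knockout 3, the liver array with Adipoq, was the lowest of all 24 at 6.15, and leaving it out alone gave -0.435 ± 0.19 (adjusted p = 0.348).

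Slc30a1 encodes ZnT1, the zinc exporter of the plasma membrane and a target of MTF1. Livers had it at 5.94, 5.88 and 6.01 in NEMO knockouts, 5.86, 6.01 and 6.09 in KEAP1 knockouts, 5.83, 5.79 and 5.47 in double knockouts, and 6.27, 5.64 and 5.74 in controls. Hepatocytes had it at 5.90, 6.54 and 6.84 in NEMO knockouts, 6.05, 6.31 and 6.04 in KEAP1 knockouts, 6.26, 5.82 and 6.19 in double knockouts, and 6.24, 6.50 and 6.36 in controls. Every knockout group overlapped its control, no change was called, and the 95% intervals of the changes against control lay within -0.71 and 0.50. All 8 groups overlapped their neighbours in the order of means. Another probe set names Slc30a1 together with other symbols and was not used.

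Mt1 and Mt2 encode the metallothioneins of liver, which zinc, glucocorticoids and inflammation induce. In liver Mt1 was at 10.32, 10.26 and 10.00 in NEMO knockouts, 10.40, 9.71 and 11.75 in KEAP1 knockouts, 11.27, 11.34 and 11.34 in double knockouts, and 9.73, 7.82 and 11.10 in controls. Mt2 was at 9.86, 9.80 and 9.68 in NEMO knockouts, 10.79, 8.98 and 12.23 in KEAP1 knockouts, 11.52, 11.60 and 11.56 in double knockouts, and 9.44, 6.59 and 11.31 in controls. The double knockouts lay above all controls for both genes, and their 3 arrays had an SD of 0.04 for each gene. Double knockout and control livers did not overlap, in either direction, for 3773 of the 18820 genes tested. KEAP1 knockouts and controls spread widely, with SDs of 1.63 and 2.38 for Mt2, and control 3, in doubt for its NRF2 targets, was the highest control. NEMO knockouts lay between the controls.

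Against control in liver, Mt1 was 1.76 ± 0.65 and Mt2 2.45 ± 0.96 higher in double knockouts on all arrays, with adjusted p of 0.17 and 0.183. With the arrays in doubt removed the changes passed the test, at 2.53 ± 0.59 for Mt1 (adjusted p = 0.0202) and 3.55 ± 0.90 for Mt2 (adjusted p = 0.0292). Leaving out liver control 3 alone gave both calls, at 2.54 ± 0.54 for Mt1 and 3.55 ± 0.82 for Mt2 (adjusted p = 0.0126 and 0.0185). Leaving out liver control 2 alone gave 0.90 ± 0.49 and 1.19 ± 0.73 (adjusted p = 0.437 and 0.481), so the size of both changes depended on which control arrays were kept. The comparison without the arrays in doubt has 2 arrays a group, and control 2 at 6.59 was the lowest of all 24 arrays for Mt2. With the replicate number as a block the adjusted p were 0.0829 for Mt1 and 0.0865 for Mt2. In KEAP1 knockout liver Mt2 was 1.56 ± 0.96 higher (adjusted p = 0.693) and in NEMO knockout liver 0.67 ± 0.96 (adjusted p = 0.752), both with intervals that hold 0. Without the arrays in doubt the KEAP1 knockout differed by 1.85 ± 0.54 in Mt1 and 2.65 ± 0.82 in Mt2 (adjusted p = 0.0721 and 0.0875). The double knockout lay above the NEMO knockout on every array for both genes, where the groups did not overlap for 18.6% of all genes. The differences of 1.12 ± 0.65 for Mt1 and 1.78 ± 0.96 for Mt2 were not called (adjusted p = 0.555 and 0.516), nor were those without the arrays in doubt, at adjusted p of 0.373 and 0.338.

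In hepatocytes Mt1 was at 10.55, 11.23 and 11.14 in NEMO knockouts, between 10.91 and 11.21 with a mean of 11.04 in KEAP1 knockouts, 11.66, 12.04 and 12.14 in double knockouts, and 11.58, 11.82 and 10.62 in controls. Mt2 was at 9.74, 11.16 and 10.68 in NEMO knockouts, 11.15, 10.16 and 10.59 in KEAP1 knockouts, 11.76, 12.33 and 12.28 in double knockouts, and 11.47, 11.91 and 9.95 in controls. Double knockout cultures lay above both single knockouts and overlapped the controls, and control 3 was low for both genes. Arrays of the double knockout did not overlap, in either direction, for 20.9% of all genes against NEMO and 21.5% against KEAP1 knockouts. Mt1 was 0.97 ± 0.26 higher in double than in NEMO knockouts (adjusted p = 0.0597) and 0.91 ± 0.26 higher than in KEAP1 knockouts (adjusted p = 0.0897). Mt2 was 1.60 ± 0.45 and 1.49 ± 0.45 higher (adjusted p = 0.0732 and 0.111). None of these 4 differences was called, and without the arrays in doubt their adjusted p lay between 0.123 and 0.171. Among the 8 groups ordered by mean, double knockout hepatocytes came first for both genes, at 11.95 ± 0.25 for Mt1 and 12.12 ± 0.32 for Mt2, and control liver came last, at 9.55 ± 1.65 and 9.11 ± 2.38 (SD, n = 3 each).

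**Figure D4:**
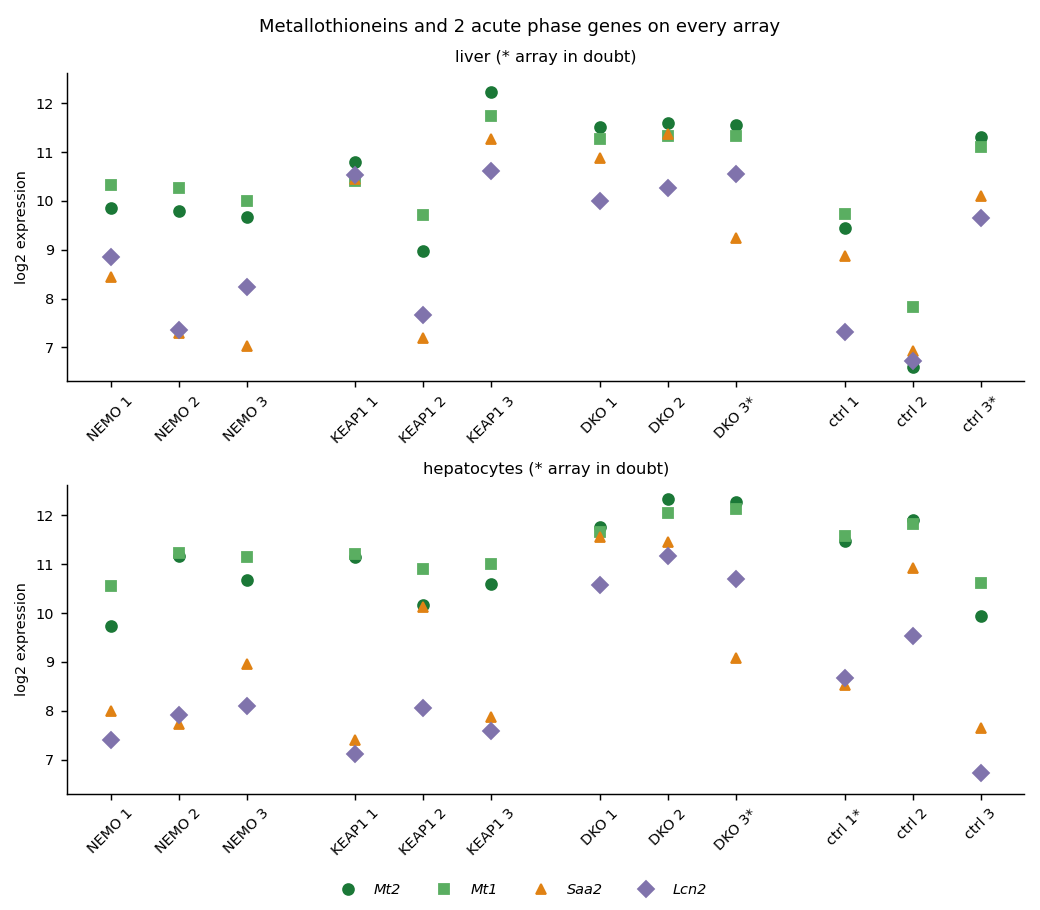
Symbols give the log2 levels of Mt2, Mt1 and the acute phase genes Saa2 and Lcn2 on every array, with livers above, hepatocytes below and a star at the 4 arrays in doubt. In KEAP1 knockout and control livers all 4 genes are lowest on array 2 and highest on array 3 of their group, while in double knockout livers Saa2 spreads over 9.25 to 11.38 and Mt1 and Mt2 have an SD of 0.04.

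Saa2 and Lcn2, acute phase genes that hepatocytes raise in inflammation, are shown beside the metallothioneins and were picked from 14 such genes after their values were seen. Saa2, the gene of serum amyloid A2, was at 8.45, 7.30 and 7.03 in NEMO knockout livers, 10.44, 7.20 and 11.27 in KEAP1 knockout livers, 10.89, 11.38 and 9.25 in double knockout livers, and 8.88, 6.92 and 10.11 in control livers. Lcn2, the iron-siderophore binding protein lipocalin 2, was at 8.86, 7.36 and 8.24, at 10.54, 7.67 and 10.62, at 9.99, 10.27 and 10.55, and at 7.31, 6.73 and 9.65 in the same groups. In KEAP1 knockouts and in controls both genes were lowest on array 2 and highest on array 3, as Mt1 and Mt2 were. Not all arrays and genes followed this order. Orm2, the gene of the plasma protein orosomucoid 2, followed it in KEAP1 knockout livers, at 9.25, 7.46 and 9.64. In control livers Orm2 was highest on array 3 at 9.44 but lowest on array 1 at 6.73. Among KEAP1 knockout cultures array 2 had the highest Saa2, 10.12, and the lowest Mt2, 10.16. The sum of all 14 genes lay between 15.23 and 15.38 in control livers. Of 14 measured of 15 listed acute phase genes, 0 were called in double knockout liver against control on all arrays, where 0.00531% of all genes were called, and Orm2 and Lcn2 were called higher without the arrays in doubt, where 9.20% were. The median change of the 14 was -0.125 on all arrays and -0.092 without those in doubt, beside -0.038 and -0.039 over all genes. In double knockout hepatocytes against control, where 9.72% of all genes were called, Lcn2 was called higher and Saa3, another serum amyloid A gene, lower by -1.30 ± 0.33 (adjusted p = 0.0229). Orm2 and Lcn2 were called higher in double than in NEMO knockout hepatocytes, where 3.32% of all genes were called and the metallothioneins missed the threshold. The part of an acute phase response in the metallothionein levels was not tested. The 10 listed NRF2 targets were all called higher in double knockout liver against control without the arrays in doubt and 0 on all arrays.

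The promoter windows were also searched for the core of the metal response element bound by MTF1, TGCACNC or TGCGCNC on both strands, with overlapping matches counted as 1 stretch. Of all 32851 windows, 25.7% held at least 1 stretch, 6.14% at least 2, 1.31% at least 3 and 0.3% at least 4. The windows of both metallothioneins and of Slc30a1, another MTF1 target and one with no called change, are shown with matches to either motif in capitals. Mt1 (chr8:94178839-94179138, plus strand) held 3 stretches of the metal motif, Mt2 (chr8:94172368-94172667, plus strand) 4 and 1 antioxidant motif, and Slc30a1 (chr1:191906531-191906830, plus strand) 2 and 1 antioxidant motif.
Mt1: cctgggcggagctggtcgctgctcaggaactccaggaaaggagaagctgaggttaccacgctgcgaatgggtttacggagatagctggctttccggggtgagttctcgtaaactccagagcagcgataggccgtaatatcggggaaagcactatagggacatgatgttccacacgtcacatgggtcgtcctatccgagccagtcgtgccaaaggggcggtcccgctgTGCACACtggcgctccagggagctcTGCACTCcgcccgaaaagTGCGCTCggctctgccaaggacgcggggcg
Mt2: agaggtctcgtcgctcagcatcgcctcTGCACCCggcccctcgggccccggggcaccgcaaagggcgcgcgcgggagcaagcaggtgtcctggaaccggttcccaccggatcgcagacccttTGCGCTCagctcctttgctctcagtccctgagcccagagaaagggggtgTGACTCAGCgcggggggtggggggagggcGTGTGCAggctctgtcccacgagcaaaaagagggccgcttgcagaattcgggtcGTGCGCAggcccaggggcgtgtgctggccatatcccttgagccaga
Slc30a1: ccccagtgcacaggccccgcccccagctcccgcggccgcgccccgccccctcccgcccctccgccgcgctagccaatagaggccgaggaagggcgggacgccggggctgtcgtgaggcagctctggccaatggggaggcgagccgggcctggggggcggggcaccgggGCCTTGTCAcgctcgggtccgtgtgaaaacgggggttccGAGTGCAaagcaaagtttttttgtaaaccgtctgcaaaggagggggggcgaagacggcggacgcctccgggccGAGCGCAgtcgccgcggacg
Slc30a10 held 2 stretches of the metal motif, and Slc39a2 held none. No match of one motif overlapped a match of the other in the windows shown. Mt1 and Mt2 lie near each other on chromosome 8, on the same strand.

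Over the 8 group means, each tissue centred on its own mean, Mt1 and Mt2 had a Pearson r of 0.99 with each other, and Slc30a10 had -0.91 with Mt1 and -0.88 with Mt2. Slc39a4 and Slc39a5 had 0.89, and Slc39a2 had 0.61 with Slc39a4. These are descriptions over 8 points that share the arrays of each group. Among genes that are no member, the closest to Mt2 were Lpin3 (0.98), Ankfy1 (0.977) and Mx1 (0.976), and the closest to Mt1 were Gas6 (0.982), Ankfy1 (0.973) and Cep41 (0.971). The closest to Slc39a2 were Slc8b1 (0.979), Zc3h13 (0.971) and Man1a2 (0.96), and to Slc39a5 Scfd2 (0.979), Ap1ar (0.977) and Mien1 (0.974). These are the 3 highest values over all genes tested that are no member, for the 4 members with the widest range of group means.

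Cultured hepatocytes were then set against the liver of the same genotype. NEMO knockouts called 0 of the 10 genes (1 at an unadjusted p under 0.05), where 3.77% of all genes were called, and 0 (1 unadjusted) without the arrays in doubt, where 7.86% were. KEAP1 knockouts called 0 (1 unadjusted), where 2.49% of all genes were called, and 1 lower without the arrays in doubt, where 6.47% were. Double knockouts called 0 (2 unadjusted), where 2.24% of all genes were called, and 0 (1 unadjusted) without the arrays in doubt, where 0.792% were. Controls called 0 (3 unadjusted), where 5.13% of all genes were called, and 1 higher without the arrays in doubt, where 3.06% were.

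The lower gene was Slc39a2, at -1.19 ± 0.27 in KEAP1 knockout cultures against KEAP1 knockout livers (adjusted p = 0.00963, and 0.0981 with -1.19 ± 0.38 on all arrays). Its 3 culture levels, 4.06, 4.50 and 4.02, lay below the 3 liver levels of 6.00, 4.76 and 5.40, and these groups did not overlap for 25.7% of all genes. The higher gene was Mt1, at 2.45 ± 0.54 in control cultures against control livers (adjusted p = 0.0128, and 0.0574 with 1.79 ± 0.54 on all arrays). Mt1 was called there also when liver control 3 or hepatocyte control 3 alone was left out, at 2.57 and 2.15 (adjusted p = 0.00272 and 0.0388). Leaving out liver control 2 alone gave 0.92 (adjusted p = 0.294). For Mt2 the difference was not called, at 2.00 ± 0.81 on all arrays (adjusted p = 0.194) or at 2.92 ± 0.85 on the 20 arrays left (adjusted p = 0.0732). In double knockouts Mt1 differed by 0.64 ± 0.54 and Mt2 by 0.56 ± 0.81 between culture and liver, and by 0.55 ± 0.54 and 0.48 ± 0.85 without the arrays in doubt.

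Whether a knockout's change against control differed between tissues was tested as the liver change minus the hepatocyte change. For the NEMO knockout 0 of 10 genes were called (0 unadjusted), where 0.0691% of all genes were called, and 0 (1 unadjusted) without the arrays in doubt, where 0.0638% were. For the KEAP1 knockout 0 were called (0 unadjusted), where 0% of all genes were called, and 0 (2 unadjusted) without the arrays in doubt, where 0.0106% were. For the double knockout 0 were called (0 unadjusted), where 0.0691% of all genes were called, and 0 (1 unadjusted) without the arrays in doubt, where 0.00531% were. The difference for Mt2 in the double knockout was 1.44 with a 95% interval of -0.95 to 3.83, so a difference of several log2 units between tissues was not detectable at 3 arrays a group. With the arrays in doubt removed it was 2.44 (-0.07 to 4.95). For Slc39a2 in the NEMO knockout it was -0.12 with an interval of -1.24 to 0.99, and -0.17 (-1.06 to 0.72) without the arrays in doubt.

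Of 19 other zinc genes, all measured, few were called. The list held other ZIP and ZnT carriers, Mt3, Mt4 and the transcription factor gene Mtf1. On all arrays 0 of 19 were called in each of the 6 liver comparisons, and their median change in NEMO knockout liver against control was -0.02 beside -0.04 over all genes. In double knockout hepatocytes 2 of 19 rose against control, close to the 9.72% of all genes called there: Slc39a6, a plasma membrane importer, by 0.50 ± 0.14 (adjusted p = 0.0341) and Slc39a11 by 0.42 ± 0.10 (adjusted p = 0.0126), beside a list median of 0.04 and -0.03 over all genes. Against NEMO knockout hepatocytes Slc39a6 was higher in the double knockout by 0.57 ± 0.14 (adjusted p = 0.039) and Slc30a3, the zinc carrier of synaptic vesicles, lower by -0.62 ± 0.16 (adjusted p = 0.0482). Without the arrays in doubt Slc39a11 rose by 0.64 ± 0.12 in KEAP1 knockout liver (adjusted p = 0.00819) and by 0.64 ± 0.13 in double knockout liver (adjusted p = 0.00799). Slc39a10 rose by 1.08 ± 0.22 in double knockout liver (adjusted p = 0.00871). In NEMO knockout liver Slc39a10, Slc39a11 and Slc39a13, importers of the plasma membrane and of organelles, rose, by 0.70 ± 0.20, 0.45 ± 0.12 and 0.52 ± 0.15 (adjusted p = 0.039, 0.025 and 0.0386). With those arrays removed the calls were thus 3, 1 and 2 of 19 in NEMO, KEAP1 and double knockout liver, where 12%, 5.26% and 9.20% of all genes were called.

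Genes that share manganese or iron with ZIP8, ZIP14 and ZnT10 were counted in the same way, over 10 listed and measured. On all arrays 0 were called in liver. In double knockout hepatocytes, where 9.72% of all genes were called, 3 rose against control: Ftl1, the ferritin light chain, by 0.52 ± 0.09 (adjusted p = 0.0019), Slc40a1, the iron exporter ferroportin, by 0.64 ± 0.16 (adjusted p = 0.0248) and Fth1, the ferritin heavy chain, by 0.20 ± 0.06 (adjusted p = 0.034). Without the arrays in doubt Ftl1 alone of these was called there, at 0.57 ± 0.11 (adjusted p = 0.00478). In liver without those arrays Ftl1 and Slc40a1 were called higher in KEAP1 and double knockouts against control, and Tfrc, the transferrin receptor, in double knockouts by 1.03 ± 0.27 (adjusted p = 0.0353), where 5.26% and 9.20% of all genes were called. In NEMO knockout liver Arg1, the manganese enzyme arginase 1, fell by 0.58 ± 0.11 (adjusted p = 0.00434) and Sod2, the manganese superoxide dismutase, by 0.34 ± 0.08 (adjusted p = 0.0211), both without the arrays in doubt, where 12% of all genes were called.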

How the data were processed

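Expression was measured on 24 1-colour Affymetrix arrays, 3 for each of 4 genotypes in whole liver and in cultured hepatocytes. The authors deposited log2 values, and per the submitters' processing notes RMA was used. The notes name no version. Values ran between 0.51 and 13.62, and no step was undone. The number of arrays limits the precision, and the p-values measure the spread between arrays labelled as separate mice.

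Of 35556 probe sets, 21218 had 1 symbol, 1881 had several and 12457 were not named here. The brightest probe set stood for each of 18820 genes, of which 1386 had several. The genes described and all lists were chosen with earlier results of these data known, so no list is independent evidence. The genes named with values are the 10 described, members of the lists that were called, the 3 most similar genes for each of Mt1, Mt2, Slc39a2 and Slc39a5, and genes that identify arrays in doubt. Those arrays and the acute phase genes shown beside the metallothioneins were singled out after values were seen.

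Linear models were fitted with limma's lmFit and eBayes with a mean trend (limma 3.58.1, R 4.3.3) and p-values adjusted over all genes by Benjamini and Hochberg's method, on the 12 arrays of a tissue within tissues and on all 24 across tissues. The procedure was tested on simulated data. The 19 comparisons share groups. Alternatives were no trend, only the groups compared, a filter at a mean of 4, median centring, the mean of probe sets, array weights, the replicate number as a block, leaving out each array in turn and, added after seeing the data, leaving out the 4 arrays in doubt, which kept 20. The numbers were taken to pair arrays where the deviations of every same-numbered pair correlated above 0.1 over genes. This held in 1 comparison, double knockout against control liver (0.115, 0.136 and 0.23), whose number 3 arrays are both in doubt. Correlations were also positive for each number between double and NEMO knockout livers (0.024, 0.21 and 0.258) and between double and KEAP1 knockout livers (0.086, 0.101 and 0.225).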

Additional observations from a re-analysis of the deposited data

Results flagged for a closer look

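In hepatocytes the difference in Slc39a2 between cells with and without KEAP1 was not the same where NEMO was missing and where it was present. The double knockout was 2.25 above the NEMO knockout, and the KEAP1 knockout differed by -1.12 from the control, on the log2 scale. The test of the difference itself, the interaction, gave 3.37 (adjusted p = 0.038 in limma), from double knockouts at 5.88, 5.85 and 7.0, NEMO knockouts at 3.78, 3.95 and 4.25, KEAP1 knockouts at 4.06, 4.50 and 4.02, and controls at 6.00, 4.47 and 5.46. The double knockout array at 7.0 and the control array at 6.00 are those with Xist.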

How the results depend on the processing

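Of the named differences, 3 kept their call under every alternative tried: Slc39a2 in double against NEMO and against KEAP1 knockout hepatocytes, and Slc39a4 in double against NEMO knockout hepatocytes. No called change turned its direction. The counts of the 10 genes called moved as follows, and the cause was not tested. The share of all genes called under each alternative is not set beside these counts. A count that moved is therefore not a result about the 10 genes. In NEMO knockout against control liver 1 was called, 0 without the trend or with only the groups compared, 2 with median centring, array weights or the replicate block, and 3 without the arrays in doubt. In KEAP1 knockout against control liver 0 became 2 without the arrays in doubt. In double knockout against control liver 0 became 1 with array weights (Mt1) and 3 without the arrays in doubt. In double against NEMO knockout liver 2 became 0 without the trend and 1 with median centring. In NEMO knockout against control hepatocytes 2 became 0 without the trend and 1 with only the groups compared, array weights or the replicate block. Without the arrays in doubt it became 1 as well, by Slc39a14 alone. In KEAP1 knockout against control hepatocytes 0 became 1 without the arrays in doubt, and in double knockout against control hepatocytes 0 became 1 with median centring (Slc39a14, lower). In double against NEMO knockout hepatocytes 2 became 4 and in double against KEAP1 knockout hepatocytes 1 became 3 with only the groups compared, both by adding Mt1 and Mt2, and the second was 2 with array weights (Mt1). The hepatocyte interaction, 1, became 0 without the trend (adjusted p = 0.0702 for Slc39a2) or with the low filter (0.0504). Between hepatocytes and liver, 0 became 1 in NEMO knockouts with only the groups compared (Mt1) or median centring (Slc30a1), 1 in KEAP1 knockouts with only the groups compared, array weights or without the arrays in doubt (Slc39a2), and 1 in double knockouts with median centring (Slc39a14). In controls 0 became 1 with the low filter, array weights or without the arrays in doubt (Mt1) and 2 with median centring (Slc30a1 and Mt1).

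Leaving out 1 array at a time gave 0 to 1 calls in liver for NEMO and KEAP1 knockout against control and for double against NEMO knockout, 0 to 3 for double knockout against control, and 0 for double against KEAP1 knockout and the interaction. In hepatocytes it gave 0 to 1 for each knockout against control, 2 to 3 for double against NEMO knockout, 1 for double against KEAP1 knockout and 0 to 2 for the interaction. Between hepatocytes and liver it gave 0 to 1 in NEMO knockouts, 0 in KEAP1 and double knockouts and 0 to 2 in controls, and 0 for each tissue difference. Calls over all genes moved as well, in liver over 23 to 1409 for NEMO, 0 to 497 for KEAP1 and 0 to 2207 for double knockout against control and 16 to 175 for double against NEMO knockout, and in hepatocytes over 807 to 1196, 123 to 405, 1042 to 1946 and 293 to 530 for the same comparisons. Slc39a2 became a call in KEAP1 knockout against control hepatocytes without control 2 and in double knockout against control hepatocytes without control 1. Slc39a5 became one in double against NEMO knockout hepatocytes without double knockout 2 (adjusted p = 0.035), Mt1 in the hepatocyte interaction without control 3, and Slc30a1 in NEMO knockout hepatocytes against liver without hepatocyte NEMO knockout 1.

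With the replicate block, Slc39a2 in NEMO knockout against control liver was called (adjusted p = 0.0467) and Slc39a4 in NEMO knockout against control hepatocytes was not (0.0504). Median centring moved the median of all genes by up to 0.22 log2 units and turned the sign only of changes of at most 0.19, none of them called. With 3 arrays a group, and with Slc39a2 and Slc39a5 near the array median in several groups, signal and number of arrays limit what these values can show.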
